A study of Mus musculus with 12 samples.

Results

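The 7 T-box genes Tbx2, Tbx3, Tbx4, Tbx5, Tbx15, Tbx18 and Tbx22 were followed through the forelimb of mouse embryos at E12.5 (embryonic day), with and without the gene Impdh2. They were picked by symbol from the 51826 gene identifiers of the forelimb count data, in part because their levels in these same libraries were already known to differ between genotypes, so those levels are given as a description, with no p-value for any of them. The product of Impdh2 is an enzyme that makes guanine nucleotides, and the study asked what it does in limb development and in osteoclast formation. The forelimb groups were wild type (WT) and Impdh2 Prx-cKO, in which the gene was deleted in limb mesenchymal progenitors, with 2 libraries each. The labels name no Cre line, and give neither the number of embryos behind a library nor whether replicates came from separate embryos. Counts of the sex-linked genes Xist and Ddx3y, given below, were of opposite type in the 2 libraries of each genotype. The 2 libraries were therefore not repeats of the same embryo. Any p-value measures the spread between these libraries, and how much of that spread lies between embryos is not known. The labels describe no deletion in the vessel, muscle, blood, nerve or skin cells of the dissected limb. A second set of 8 libraries came from cultured bone marrow cells labelled osteoclast, WT or with Impdh2 deleted in myeloid cells (LysM-cKO), under the titles R40D3 and R0D3, with 2 libraries in each of 4 groups.

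T-box proteins are transcription factors that bind DNA through a conserved domain, the T-box, and act as activators or repressors of developmental genes. Tbx5 starts the forelimb bud by switching on Fgf10 in the mesenchyme, and Tbx4 has the matching role in the hindlimb. Tbx2 and Tbx3 are repressors of the limb margins and of the posterior digits, Tbx15 and Tbx18 act in the mesenchyme that builds the shoulder girdle and other skeletal parts, and Tbx22 is best known as the X-linked gene of cleft palate.

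The members are related in sequence, which matters for the counts because reads from near-identical copies could be credited to the wrong gene. A 75-base stretch near the start of the T-box coding sequence is printed for all 7 to show how far they differ within a conserved stretch. Among the windows scanned along the Tbx5 coding sequence, this stretch was chosen for having the most bases identical in all 7. Its identities are therefore the highest found and not typical of the T-box. It lies within a single exon of each gene (GENCODE M21 on GRCm38), capitals mark the bases identical in all 7, and it is read 5′ to 3′ on the coding strand.
Tbx2: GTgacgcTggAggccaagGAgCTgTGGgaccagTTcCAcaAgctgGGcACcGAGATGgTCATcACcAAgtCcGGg
Tbx3: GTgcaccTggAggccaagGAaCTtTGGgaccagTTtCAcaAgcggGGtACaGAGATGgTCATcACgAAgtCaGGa
Tbx4: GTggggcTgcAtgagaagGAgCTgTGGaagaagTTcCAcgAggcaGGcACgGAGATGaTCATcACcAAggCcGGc
Tbx5: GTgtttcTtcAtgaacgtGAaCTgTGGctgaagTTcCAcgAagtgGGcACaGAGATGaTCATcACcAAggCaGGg
Tbx15: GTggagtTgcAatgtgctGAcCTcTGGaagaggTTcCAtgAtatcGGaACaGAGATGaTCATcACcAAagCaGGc
Tbx18: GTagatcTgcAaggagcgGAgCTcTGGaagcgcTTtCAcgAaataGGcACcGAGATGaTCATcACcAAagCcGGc
Tbx22: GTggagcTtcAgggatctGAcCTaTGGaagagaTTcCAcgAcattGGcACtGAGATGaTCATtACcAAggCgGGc
Of the 75 bases, 37 were the same in all 7 genes. The closest pair in this stretch was Tbx2 and Tbx3, with 63 bases in common, and Tbx15 shared 59 with Tbx18 and 59 with Tbx22. Across whole coding sequences the longest exact run that any pair of members shared was 23 bases, found between Tbx15 and Tbx18 and between Tbx4 and Tbx5.

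Impdh2 itself was examined first, as a check of the labels. It stood at 260 and 272 CPM (counts scaled to the size of the library) in WT replicates 1 and 2 and at 169.7 and 199.4 CPM in Prx-cKO replicates 1 and 2, so 69.3% of the WT mean was left and the groups did not overlap. The fitted difference was -0.53 on the log2 scale (SE 0.16, edgeR quasi-likelihood test with Benjamini-Hochberg adjustment, adjusted p = 0.443). Total counts were 40931953 and 69466572 in WT and 28892215 and 54452957 in Prx-cKO, and 19987 genes passed the filter on low counts, all 7 members among them. With edgeR, 0 genes passed an adjusted p of 0.05 and the smallest adjusted p was 0.118. At an unadjusted p under 0.05 there were 2096 genes (10.5%). DESeq2 called 301 of 20982 genes (1.43%), and edgeR called 605 genes when WT replicate 1 was left out and 104 when WT replicate 2 was. The median log2 fold change over all genes tested was -0.03, with quartiles of -0.35 and 0.26. In each genotype 1 library had female-type counts (Xist) and the other male-type counts (Ddx3y). WT replicate 1 and Prx-cKO replicate 2 were female-type.

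Of these genes 6 had lower levels in the deleted forelimbs, and the sizes differed widely: Tbx22 was at 3.03% of the WT mean, Tbx5 at 52.4%, Tbx18 at 53.4%, Tbx4 at 65.6%, Tbx3 at 78.9% and Tbx15 at 82.2%. Tbx2 did not share this pattern. Summed over the 7 genes, the level was 728.7 and 707.9 CPM in the WT libraries and 522 and 517 CPM in the Prx-cKO libraries. In 6 members both Prx-cKO libraries lay below both WT libraries, which was the case for 21.0% of all genes tested, and in 0 members did both lie above, against 22.2% of all genes. At an unadjusted edgeR p under 0.05, 4 members were lower, against 4.61% of all genes tested, and 0 were higher, against 5.87%. DESeq2 called 3 members lower, against 0.743% of all genes. Since the members were chosen with this contrast in view, these counts are no independent test and nothing is read from them. In bulk tissue, fewer cells of a type and less RNA per cell cannot be told apart.

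**Figure D1:**
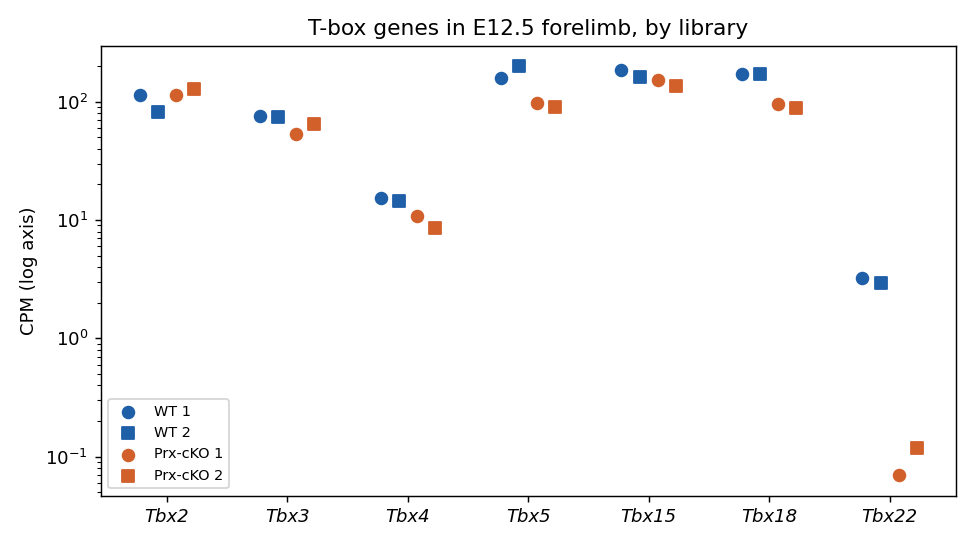
Level of each T-box gene in CPM (log axis) in the 4 forelimb libraries, 1 point per library, with circles for replicate 1, squares for replicate 2, blue for WT and orange for Prx-cKO. Tbx22 shows the widest separation, 3.24 and 2.94 CPM in WT against 0.0696 and 0.117 CPM in Prx-cKO, and Tbx2 is the gene whose groups overlap.

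Tbx5 (ENSMUSG00000018263, chr5:119832668-119885219, plus strand) is the forelimb initiation factor. The printed stretch lies in its exon 3 of 9, at chr5:119838714-119838788. Its level was 160.1 and 199.5 CPM in WT replicates 1 and 2 and 97.0 and 91.2 CPM in Prx-cKO replicates 1 and 2. Both Prx-cKO libraries sat well below the lower WT library, and the WT libraries differed from each other by 1.25 times. The means were 179.8 ± 27.8 and 94.1 ± 4.11 CPM (SD, n = 2), 52.4% of WT, and the fitted log2 fold change was -0.93 (SE 0.17). That difference depended on the WT library used, at -1.12 with WT replicate 1 left out and -0.76 with WT replicate 2 left out.

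Tbx4 (ENSMUSG00000000094, chr11:85886422-85916097, plus strand; printed stretch in exon 2 of 8, chr11:85890875-85890949), the hindlimb counterpart of Tbx5, was present in the forelimb libraries at a lower level. It measured 15.3 and 14.4 CPM in WT and 10.8 and 8.65 CPM in Prx-cKO, with no overlap. The Prx-cKO mean was 65.6% of WT, and the log2 fold change was -0.61 (SE 0.23). The ratio of Tbx5 to Tbx4 counts was 10.5 and 13.9 in WT and 8.97 and 10.5 in Prx-cKO, so the ratios of the genotypes met at 10.5. Other genes that mark hindlimb identity were also few in reads. The 5 on the list (Pitx1, Isl1, Hoxc9, Hoxc10, Hoxc11) summed to 15.5 and 12.54 CPM in WT and 19.3 and 15.8 CPM in Prx-cKO. Isl1, a factor upstream of the hindlimb bud, was at 3.50 and 2.66 CPM in WT against 6.96 and 6.81 CPM in Prx-cKO, and Pitx1, which gives the hindlimb its identity, at 3.00 and 2.03 against 5.15 and 3.35 CPM. The posterior Hox genes lay on the other side, Hoxc10 at 3.19 and 2.80 against 1.98 and 2.31 CPM and Hoxc11 at 2.81 and 2.98 against 2.64 and 1.27 CPM, so 2 of the 5 had a fold change above 0 and 3 below. None passed the adjusted threshold, and their part in the Tbx4 reads was not tested.

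Tbx2 and Tbx3, the margin repressors, parted from each other. Tbx3 (ENSMUSG00000018604, chr5:119670669-119684724, plus strand; printed stretch in exon 1 of 8, chr5:119672328-119672402) measured 76.3 and 73.9 CPM in WT and 53.3 and 65.1 CPM in Prx-cKO. The groups did not overlap, but the Prx-cKO libraries differed from each other by 1.22 times, nearly as much as the genotype means did (1.27 times). Its log2 fold change was -0.34 (SE 0.17), and -0.19 without Prx-cKO replicate 1. Tbx2 (ENSMUSG00000000093, chr11:85832551-85841948, plus strand; printed stretch in exon 1 of 7, chr11:85833425-85833499) measured 115 and 82.3 CPM in WT and 113 and 127 CPM in Prx-cKO. WT replicate 1 lay between the Prx-cKO libraries, and the WT libraries differed by 1.398 times, more than the genotype means (122% of WT). Its log2 fold change of 0.29 (SE 0.21) was 0.07 when WT replicate 2 was left out and 0.51 when WT replicate 1 was. The ratio of Tbx2 to Tbx3 counts was 1.51 and 1.11 in WT and 2.13 and 1.95 in Prx-cKO, without overlap.

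Tbx18 (ENSMUSG00000032419, chr9:87702800-87731260, minus strand; printed stretch in exon 2 of 8, chr9:87729463-87729537) patterns mesenchyme around the girdle and several organs. Its level was 171.4 and 171.6 CPM in WT and 95.2 and 87.9 CPM in Prx-cKO. The replicates of each genotype lay within 1.08 times of each other while the genotype means differed 1.87-fold (log2 fold change -0.91, SE 0.14). Tbx15 (ENSMUSG00000027868, chr3:99240381-99354259, plus strand; printed stretch in exon 2 of 8, chr3:99308967-99309041), its close relative with a part in the shoulder blade, measured 187 and 163 CPM in WT and 152 and 136 CPM in Prx-cKO. Its groups did not overlap either, yet the gap between them (163 to 152 CPM) was narrower than the gap within either of them, and the log2 fold change was -0.28 (SE 0.16). The ratio of Tbx15 to Tbx18 counts was 1.09 and 0.952 in WT and 1.60 and 1.55 in Prx-cKO.

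Tbx22 (ENSMUSG00000031241, chrX:107667964-107688978, plus strand; printed stretch in exon 3 of 9, chrX:107677701-107677775) showed the widest difference. Its reads numbered 137 and 211 in the WT libraries and 2 and 6 in the Prx-cKO libraries, which is 3.24 and 2.94 CPM against 0.0696 and 0.117 CPM. Both WT libraries were close to each other although 1 was female-type and 1 male-type, and both Prx-cKO libraries were near the floor of 3 counts. The pooled level in Prx-cKO was 3.29% of WT (8 against 348 reads), with an exact 95% interval of 1.41% to 6.55% that covers counting error only. The fitted log2 fold change was -4.91 (SE 0.55), and it ranged from -5.41 to -4.68 when 1 library was left out.

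**Figure D2:**
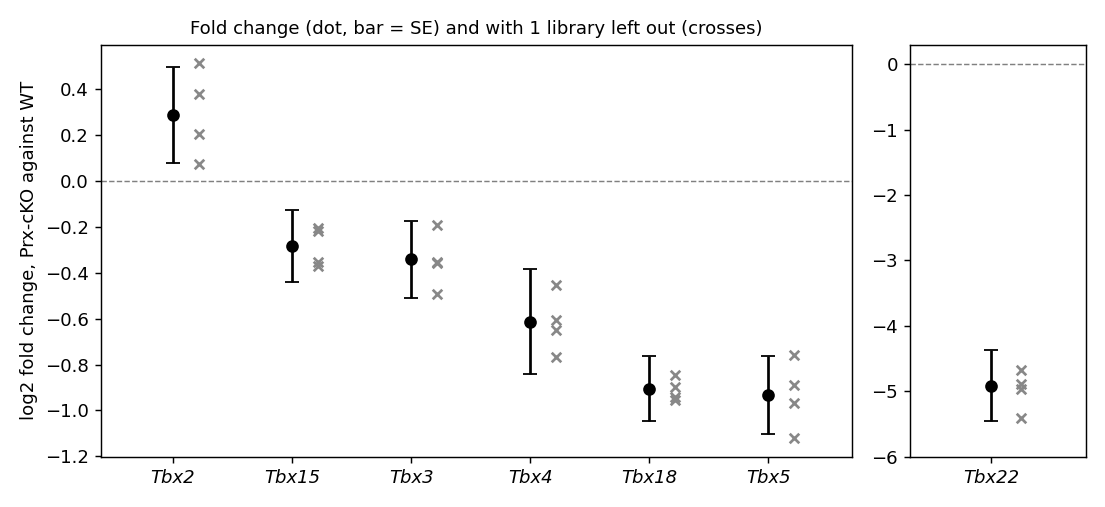
Fitted log2 fold change of Prx-cKO against WT for each T-box gene (dot, bar = SE) and the same after leaving out each of the 4 libraries in turn (crosses), with Tbx22 on an axis of its own. Tbx2 lies above 0 and spans 0.07 to 0.51, while Tbx18 spans -0.95 to -0.85.

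Levels between genes can be compared only per length, here CPM per kilobase of exon. In WT the order of the means was Tbx15 (46.8), Tbx5 (38.5), Tbx18 (36.3), Tbx2 (27.2), Tbx3 (11.3), Tbx4 (4.36) and Tbx22 (0.556). Tbx5 and Tbx18 were not separated, since Tbx18 ranked above Tbx5 in WT replicate 1 and below it in WT replicate 2, and the second WT value of Tbx5 (42.7) came near that of Tbx15 (43.6). In Prx-cKO the order was Tbx15 (38.5), Tbx2 (33.2), Tbx5 (20.1), Tbx18 (19.4), Tbx3 (8.94), Tbx4 (2.86) and Tbx22 (0.0169). Tbx2 thus ranked below Tbx5 and Tbx18 in both WT libraries and above them in both Prx-cKO libraries. Its share of the summed member CPM was 15.8% and 11.6% in WT against 21.8% and 24.6% in Prx-cKO.

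The members were then set beside 15 general markers of limb mesenchyme. Their sum was 2390 and 2765 CPM in WT and 1701 and 1803 CPM in Prx-cKO, and their median log2 fold change was -0.60. At an unadjusted p under 0.05, 6 of the 15 were lower and 0 higher, against 4.61% and 5.87% of all genes tested. Hoxd13, a digit-forming Hox gene, had the largest difference of the 15, at 291 and 401 against 144 and 134 CPM. Lhx9, a LIM factor of the distal mesenchyme, was at 163 and 183 against 81.0 and 72.5 CPM, and Lmx1b, the dorsal identity factor, at 115 and 142 against 59.7 and 66.9 CPM. None of the 15 passed the adjusted threshold with edgeR on all 4 libraries, while DESeq2 called these 3.

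Relative to that sum the members split. Tbx5 was 6.70% and 7.21% of it in WT and 5.70% and 5.06% in Prx-cKO, and Tbx18 was 7.17% and 6.21% against 5.60% and 4.88%, both still without overlap. Tbx22 was 0.135% and 0.106% against 0.00409% and 0.00652%. Tbx3 (3.19% and 2.67% against 3.13% and 3.61%), Tbx4 (0.641% and 0.520% against 0.636% and 0.480%) and Tbx15 (7.84% and 5.91% against 8.93% and 7.56%) overlapped on this scale. Tbx2 was higher, at 4.81% and 2.98% against 6.67% and 7.06%. The marker sum was itself lower in Prx-cKO, so these shares describe the members against that sum and not per cell.

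**Figure D3:**
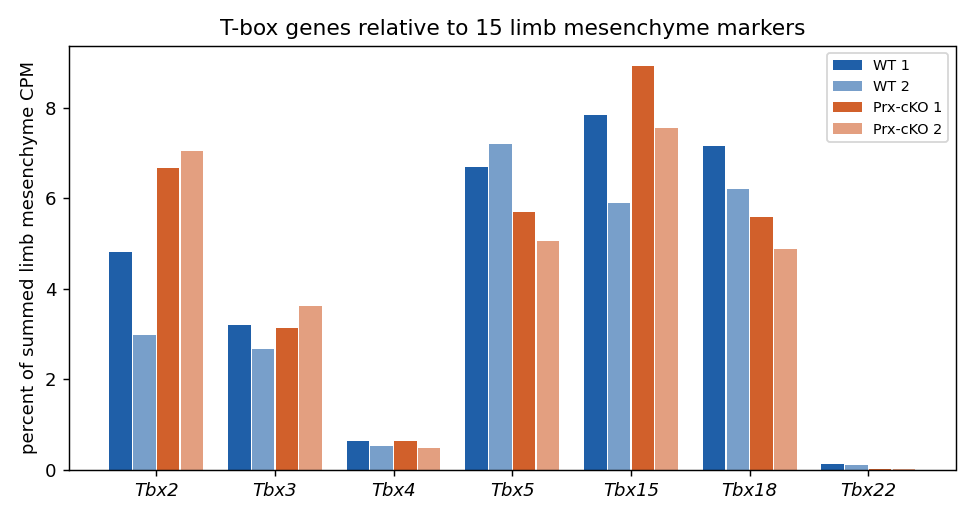
Each T-box gene as a percent of the summed CPM of 15 limb mesenchyme markers, 1 bar per forelimb library (blue WT, orange Prx-cKO). The Tbx5, Tbx18 and Tbx22 bars are lower in both Prx-cKO libraries, the Tbx2 bars are higher, and those of Tbx3, Tbx4 and Tbx15 overlap.

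Markers of other cell types also stood at different levels in the genotypes, and their part in the T-box levels was not tested. For the counts below, 4.61% of all genes tested were lower and 5.87% higher at an unadjusted p under 0.05. Of the 8 chondrocyte genes 7 were lower at an unadjusted p under 0.05 and 0 higher, with sums of 868 and 984 CPM in WT against 381 and 320 CPM in Prx-cKO. Among them Sox9, the master regulator of cartilage, was at 109 and 135 against 49.6 and 42.9 CPM and the collagen gene Col9a1 at 175 and 224 against 75.5 and 68.7 CPM, and DESeq2 called both. Of the 4 tendon genes 2 were lower at that threshold, Mkx and Tnmd, the second with few reads (12 and 40 counts against 3 and 6). The other 2 had fold changes above 0 with overlap. Scx was at 86.6 and 74.9 against 81.3 and 87.05 CPM. Egr1 was at 3.12 and 9.01 against 6.30 and 23.4 CPM (log2 fold change 1.29, SE 0.75). Of the 9 skeletal muscle genes 5 were higher (sums 376 and 366 against 1010 and 472 CPM), as were 3 of the 7 endothelial (169 and 159 against 232 and 225 CPM) and 5 of the 7 myeloid genes (33.8 and 37.0 against 76.6 and 79.2 CPM). The macrophage complement gene C1qb was at 9.17 and 8.49 against 24.9 and 26.8 CPM, a difference that DESeq2 called, and the vessel receptor gene Tie1 at 22.9 and 22.9 against 36.2 and 35.0 CPM. Of the erythroid and surface ectoderm lists 0 genes passed even the unadjusted threshold, and of the nerve and Schwann list 1 did (Foxd3, higher). In the ectoderm list the keratin gene Krt5 was at 279 and 353.5 against 382 and 492 CPM, without overlap, and Krt14 at 144 and 195 against 148 and 112 CPM. Cldn6, a tight-junction gene of that list, was at 35.0 and 32.9 against 33.6 and 50.4 CPM. Tbx5 and Tbx18 are also heart genes. The 7 heart markers summed to 10.8 and 11.8 CPM in WT and 11.5 and 8.99 CPM in Prx-cKO, with 1 of the 5 tested higher and 1 lower at an unadjusted p under 0.05. Hcn4, a pacemaker channel gene and the largest part of the WT sum, was at 6.54 and 7.45 against 3.34 and 3.39 CPM, and the myosin gene Myh7, which muscle also expresses, at 2.03 and 2.01 against 5.53 and 3.23 CPM. Nkx2-5, the defining factor of heart muscle, had 0 counts in all 4 libraries.

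The genes whose profile over the 4 libraries was most like a member were found by the root mean square difference of log2 CPM, each gene centred on its own mean. Genes under 5 CPM on average, and symbols of Gm plus digits or ending in Rik, were not ranked. Tbx22 itself had a WT mean of 3.09 CPM, so genes at its own level were left out. For Tbx22 the nearest of 11338 genes was Acan (0.519), which encodes the main proteoglycan of cartilage, at 8.29 and 10.7 CPM in WT against 0.661 and 0.391 CPM in Prx-cKO. Ebf1 (0.765) and Rflna (1.00) followed. For Tbx18 the nearest was Wif1 (0.0139), a secreted Wnt inhibitor, at 47.8 and 48.5 against 26.2 and 24.4 CPM, then Cpe (0.0311) and Ypel2 (0.0365). For Tbx5 they were Cdc42ep3 (0.0317), Abat (0.0381) and Alcam (0.0390), of which Alcam, a cell adhesion gene, was at 70.5 and 82.2 against 42.4 and 38.4 CPM. With 4 libraries in 2 groups, many genes with a difference of like size come close on this measure. Of these 9 genes DESeq2 called all but Cdc42ep3 and Abat.

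Among the other T-box genes of the mouse, 10 were in the count data and 5 passed the filter on low counts. Eomes, known from early mesoderm and the brain, had 164 and 520 counts in WT (3.87 and 7.25 CPM) and 0 in both Prx-cKO libraries. Against a floor of 3 counts per library it was at least 68.2-fold lower in Prx-cKO. It was the 1 gene of the 5 past an unadjusted p of 0.05 (edgeR quasi-likelihood test, adjusted p = 0.332), against 10.5% of all genes tested. DESeq2 called it. Tbx1, a pharyngeal and muscle factor, was at 20.1 and 18.0 CPM against 29.5 and 19.6 CPM, which did not pass. Mga, which joins a T-box to a Max-type dimerisation domain, was at 74.1 and 113 against 76.7 and 44.4 CPM, with overlap. T (brachyury, the founding member of the family) and Tbx6 were low, with log2 fold changes of -0.41 (SE 0.43) and -0.34 (SE 0.54), and the sign of the second turned to 0.21 without WT replicate 1. Tbx10, Tbx19, Tbx20, Tbx21 and Tbr1 had at most 35 counts in any library and were not tested.

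The partners of the T-box genes were read from 4 lists written from general knowledge. In the outgrowth list, with the targets and inducers of Tbx5, 2 of 20 genes were higher and 0 lower at an unadjusted p under 0.05. Over all genes tested 5.87% were higher and 4.61% lower, and nothing about the partners is read from the counts of the 4 lists. The median log2 fold change of the outgrowth list was 0.30 against -0.03 for all genes. Fgf10, the growth factor that Tbx5 switches on, was singled out after its values were seen: 15.3 and 20.8 CPM in WT and 13.1 and 19.1 CPM in Prx-cKO, with overlap and a log2 fold change of -0.16 (SE 0.28). Tcf7, a Wnt effector, was at 21.6 and 20.3 against 27.8 and 34.1 CPM and Meis1, a proximal limb factor, at 40.0 and 26.7 against 51.4 and 52.5 CPM. Aldh1a2, which makes retinoic acid, was at 39.3 and 67.8 against 36.5 and 27.4 CPM, Sall1, a zinc-finger factor of the limb, at 63.9 and 103 against 39.8 and 60.0 CPM, and Hoxb4 at 12.1 and 5.70 against 17.7 and 17.2 CPM. None of these passed the adjusted threshold, and the WT libraries of Aldh1a2, Sall1, Hoxb4 and Meis1 differed widely from each other.

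The margin list holds the genes that Tbx2 and Tbx3 act on or with. At an unadjusted p under 0.05, 4 of its 15 tested genes were higher and 2 lower (median log2 fold change 0.25). The shares of all genes tested were 5.87% and 4.61%. Cdkn1a, the cell-cycle inhibitor p21 that Tbx2 and Tbx3 are known to repress and p53 to activate, stood apart at 24.8 and 25.9 CPM in WT against 107 and 114 CPM in Prx-cKO. Its log2 fold change was 2.12 (SE 0.15, edgeR adjusted p = 0.118), a value that genes of smaller p share through the adjustment. DESeq2 called it. Shh, the posterior signal of the limb bud, was low throughout at 1.94 and 0.780 against 3.30 and 6.71 CPM. Hand2, a posterior factor that works with Tbx3, was at 165 and 154 against 101 and 114 CPM, a log2 fold change of -0.57 (SE 0.15). Gja1, a gap junction gene that Tbx2 represses, was at 92.3 and 83.0 against 120.1 and 149.6 CPM, and Bmp7 at 80.3 and 80.2 against 115 and 105 CPM. Apart from the DESeq2 call of Cdkn1a, these 5 did not pass an adjusted threshold in either tool run on all 4 libraries.

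The girdle list holds partners of Tbx15 and Tbx18, and 2 of its 15 tested genes were higher and 0 lower at an unadjusted p under 0.05 (median -0.04). The shares of all genes tested were 5.87% and 4.61%. Pax3, which marks muscle progenitors entering the limb, was at 3.09 and 3.16 CPM in WT and 11.6 and 13.3 CPM in Prx-cKO (log2 fold change 1.99, SE 0.25), and Dll1, a Notch ligand, at 11.7 and 10.4 against 19.3 and 16.3 CPM. The muscle genes Myod1 and Myog were also higher (40.8 and 42.9 against 120.5 and 79.9 CPM, and 63.6 and 59.3 against 164 and 88.6 CPM), and DESeq2 called Myod1. The corepressor gene Tle4 was at 52.5 and 70.7 against 46.5 and 49.1 CPM and Alx1 at 4.89 and 2.79 against 4.59 and 8.18 CPM, both short of the unadjusted threshold.

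The craniofacial list goes with Tbx22, and 1 of its 8 genes was higher and 2 lower at an unadjusted p under 0.05 (median -0.08). The shares of all genes tested were 5.87% and 4.61%. Pax9, a factor of palate and limb mesenchyme, was at 7.18 and 11.9 CPM in WT and 2.19 and 1.53 CPM in Prx-cKO, a log2 fold change of -2.40 (SE 0.41), and DESeq2 called it. Osr2, a palate gene, was at 32.7 and 35.6 against 20.8 and 17.8 CPM. Fgf8, the growth factor of the ectodermal ridge, was at 14.1 and 13.1 against 23.8 and 26.6 CPM. Barx1 was at 2.95 and 3.78 against 1.08 and 2.09 CPM, and Shox2, which shapes the upper arm bone, at 199.5 and 205 against 183 and 166 CPM. DESeq2 called 4 of the partner and family genes in all (Eomes, Cdkn1a, Pax3 and Pax9) and edgeR 0, and the edgeR count was 13 when WT replicate 1 was left out and 2 when WT replicate 2 was.

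The promoters of those partners were searched for AGGTGT, the core of a T-box half-site, on both strands (the other strand reads ACACCT), in RefSeq windows of the 250 bases before each gene start (GRCm38.p6). Of 32851 windows of that length, 11.8% held at least 1 match. Among the partner and family genes 48 had an entry, with 60 windows, of which 8 (13.3%) held a match. The members Tbx4, Tbx18 and Tbx22 had entries, with 5 windows and 0 matches. Cdkn1a and Pax9 are shown because they are the 2 partners called by DESeq2 whose windows held a match, with capitals for the matching letters, at chr17:29093519-29093768 and chr12:56695221-56695470, both on the plus strand.
Cdkn1a: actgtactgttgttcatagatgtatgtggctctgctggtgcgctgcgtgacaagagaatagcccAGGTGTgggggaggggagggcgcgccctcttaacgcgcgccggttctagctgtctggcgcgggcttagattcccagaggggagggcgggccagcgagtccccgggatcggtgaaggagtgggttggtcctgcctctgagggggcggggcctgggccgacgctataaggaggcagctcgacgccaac
Pax9: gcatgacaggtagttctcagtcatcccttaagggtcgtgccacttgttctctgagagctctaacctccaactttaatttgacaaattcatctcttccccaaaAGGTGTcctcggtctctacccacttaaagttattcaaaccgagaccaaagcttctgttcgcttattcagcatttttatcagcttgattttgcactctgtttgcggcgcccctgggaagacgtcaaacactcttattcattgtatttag
Cdkn1a has another start whose window, at chr17:29090729-29090978, held 0 matches. By GENCODE M21 both windows shown lie inside the gene, which begins at chr17:29090976 for Cdkn1a and at chr12:56691767 for Pax9. A match of 6 letters is a description of these windows and not a binding site.

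Tbx2 and Tbx4 lie 44474 bases apart on chromosome 11, and Tbx3 and Tbx5 lie 147944 bases apart on chromosome 5, so the genes around them were read by position alone. Within 500 kb of a member the annotation held 85 genes that are not members, of which 27 were tested and 0 passed the adjusted threshold. An unadjusted p of 0.05 was passed by 1 of the 27, against 10.5% of all genes tested, so nothing is read from that count. The median log2 fold change of the 27 was -0.18, against -0.03 for all genes. The median of the 7 tested genes around Tbx3 and Tbx5 was -0.71, and that of the 7 around Tbx2 and Tbx4 was -0.02. The genes around Tbx3 and Tbx5 include Gm43399 and Gm10390, which had at most 41 and 51 counts in a library.

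The 1 gene was Tbx3os1, an antisense transcript that starts 696 bases inside Tbx3 and runs away from it on the minus strand (chr5:119570130-119671365). Its level was 21.7 and 17.7 CPM in WT and 6.50 and 5.34 CPM in Prx-cKO, which is 30.1% of WT, and its log2 fold change was -1.74 (SE 0.25, edgeR adjusted p = 0.332). DESeq2 called it. Tbx3 itself stood at 78.9% of WT. Whether the counting used strand is not given in the sources used here, so reads from the overlap of the pair cannot be told apart. Gm43050, which starts 748 bases before Tbx5 and runs away from it on the other strand, was at 15.7 and 10.7 against 9.11 and 6.77 CPM (log2 fold change -0.74, SE 0.31). Gm43399, upstream of Tbx3, was at 0.709 and 0.571 against 0.278 and 0.215 CPM, 1700021F13Rik between the pair at 3.35 and 3.16 against 1.496 and 3.13 CPM, and Tbx3os2 at 1.30 and 1.48 against 1.88 and 1.45 CPM. Farther out, Rbm19 (0.58) and Gm10390 (-0.71) did not pass either, both values being log2 fold changes.

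Around Tbx2 and Tbx4, 2610027K06Rik begins 328 bases before Tbx2 on the other strand and had a log2 fold change of -0.21 (SE 0.37). Bcas3, which ends 6493 bases before Tbx2, was at 10.7 and 19.6 CPM in WT and 22.5 and 26.2 CPM in Prx-cKO. Brip1 (0.12), Brip1os (-0.20), Ints2 (-0.02), Med13 (-0.43) and Ppm1d (0.11) had log2 fold changes that did not pass. At the Tbx15 locus the antisense gene Gm43120 (-0.28) overlaps the member, and Wars2, Gm42717, Gm43024, Gm12428, Hsd3b6 and Zfp697 lay between -0.53 and 0.12. At the Tbx18 locus the antisense gene D030062O11Rik had -0.16, Gm37374 0.02 and Cep162 -0.51. At the Tbx22 locus Itm2a, a membrane protein gene of cartilage and muscle, was at 396 and 309 against 484 and 395 CPM, with 2610002M06Rik at -0.23 and P2ry10b at -0.07, so the near absence of Tbx22 reads in Prx-cKO had no match among the 3 tested genes around it. Among the neighbours followed in the alternatives, the signs of Brip1, Ints2, Wars2, Gm42717, Gm43024, Gm12428, D030062O11Rik, Gm37374 and P2ry10b turned in at least 1. Rbm19, Gm10390, Med13, Ppm1d, Hsd3b6 and Zfp697 were not followed there.

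**Figure D4:**
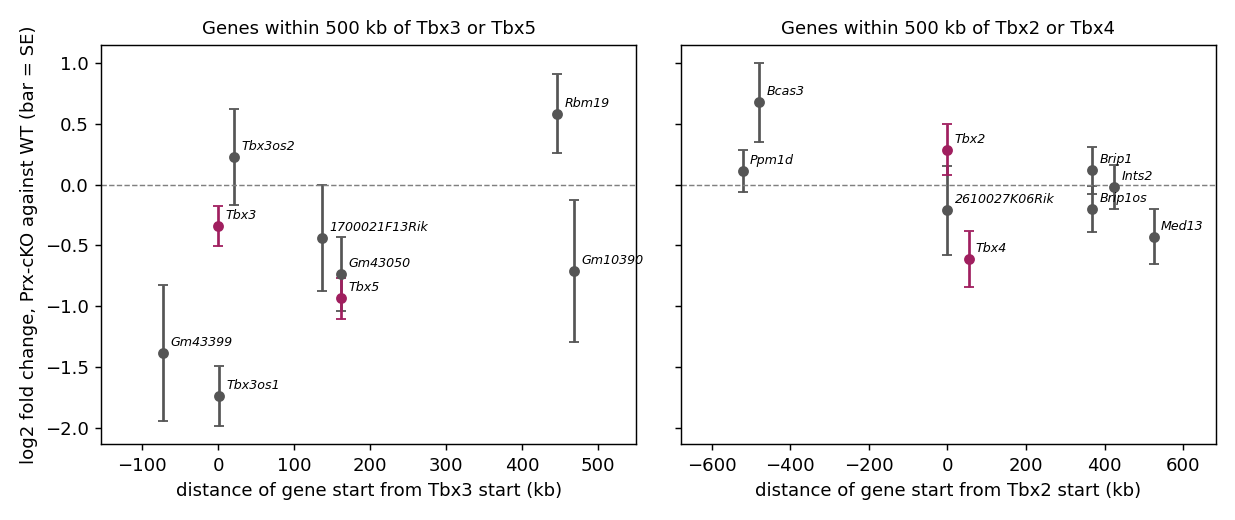
Fitted log2 fold change (dot, bar = SE) of tested genes against the distance of their start from that of Tbx3 (left) or Tbx2 (right), with T-box genes in magenta and other genes in grey. Tbx3os1 at -1.74 lies lowest, beside Tbx3 at -0.34, and Tbx2 (0.29) and Tbx4 (-0.61) lie on opposite sides of 0.

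The marrow cultures give a readout that played no part in the choice of genes. Their libraries held 16009146 to 19221865 counts. Tbx22 had 0 counts in all 8 libraries, Tbx4 and Tbx5 at most 1 each and Tbx2 at most 3, all at or under the floor of 3 counts. Tbx15 had reads in every culture library, 27 to 128 with a median of 86.5 (1.66 to 7.36 CPM), and Tbx18 had 5 to 39 with a median of 32.5 (0.308 to 2.14 CPM). Tbx3 had 3 to 26 with a median of 14. These levels were far below the forelimb, where the lowest library held 136.3 CPM of Tbx15 and 87.9 CPM of Tbx18, although the forelimb and culture data were normalised separately.

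The lowest Tbx15 and Tbx18 counts were in the LysM-cKO replicate 2 libraries, 37 and 14 at R0D3 and 27 and 5 at R40D3. In the other 6 libraries Tbx15 had at least 83 and Tbx18 at least 22. The same pair of libraries had the lowest sum of limb mesenchyme markers, 285 and 238 CPM against 683 to 889 CPM in the other 6. That sum was almost all Col1a1 (267 of 285 and 225 of 238 CPM in this pair), and 3 to 9 of the 15 genes had 0 counts in a library. Col1a1, a fibroblast and bone collagen gene, had 3650 to 16187 counts in the cultures and Prrx1, a mesenchyme factor, 153 to 522, beside 27299 to 54931 of the macrophage receptor gene Csf1r. The part of these mesenchymal genes in the T-box reads was not tested, and since LysM-cKO replicate 1 did not share the low values, no genotype difference was read from them.

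**Figure D5:**
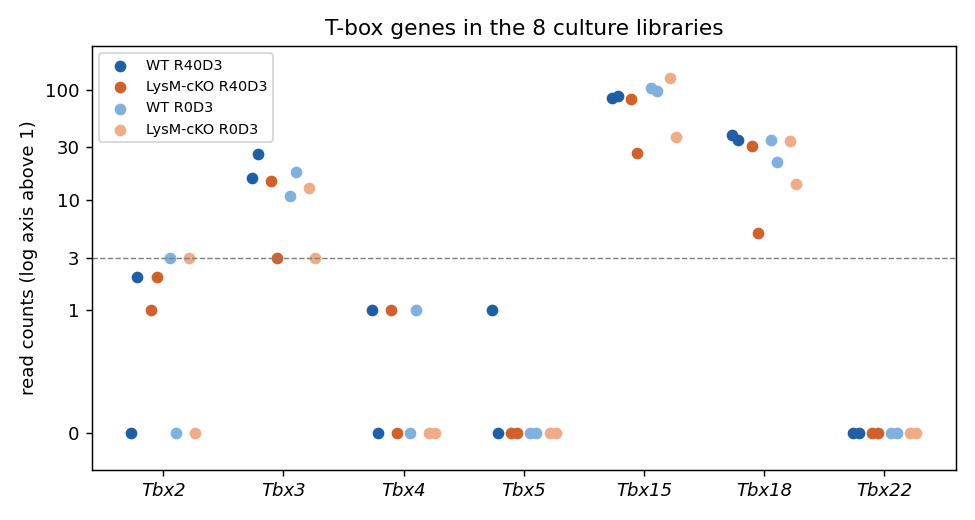
Read counts of each T-box gene in the 8 culture libraries (axis linear to 1 and logarithmic above it, 1 point per library, colour for group), with the dashed line at the floor of 3 counts. Tbx15 and Tbx18 lie above the line in every library, Tbx2, Tbx4, Tbx5 and Tbx22 at or below it.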

How the data were processed

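Whole-number read counts per Ensembl gene, as the authors deposited them, were used for 4 forelimb and 8 culture libraries. The submitters' processing notes name FastQC 0.11.2, Trimmomatic 0.36, HISAT2 2.1.0, DESeq2 1.12.4 and the build GRCm38. The counting tool, the gene models and whether strand was used are not given in the sources used here. Of the forelimb identifiers 99.6% matched a symbol, and positions and exon lengths came from GENCODE M21. The 4 forelimb libraries were fitted alone with edgeR 4.0.16 in R 4.3.3 (filterByExpr, TMM, quasi-likelihood F test with legacy = FALSE, two-sided, Benjamini-Hochberg adjustment over all genes tested, threshold 0.05). Each SE is the size of the log2 fold change over the square root of its F statistic. CPM uses the scaled library sizes, and likeness uses log2 CPM with a prior count of 2 among genes of at least 5 CPM on average. The pipeline was tested on simulated data.

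The members, gene lists and naming rule were chosen with earlier results of these data known. The rule named the members, Impdh2, the other T-box genes, the 5 smallest p of each partner list, the 3 smallest of each marker list and every tested neighbour, with values for the 5 nearest. Of these, 1 partner gene is not reported here. By likeness, the 3 nearest genes were named for the 3 members with the largest fold changes. Alternatives were DESeq2 1.42.0, other scalings (RLE, library size alone), no filter, legacy = TRUE, blocks for replicate number or for Xist and Ddx3y type, and leaving out each library.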

Additional observations from a re-analysis of the deposited data

Results flagged for a closer look

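Tbx15 and Tbx18 reads in the marrow cultures lie outside the comparison that chose these genes, and there was signal above the limit that a count of 0 allows (3 counts) in every one of the 8 libraries. The lowest Tbx15 count was 27 and the lowest Tbx18 count was 5, both in the LysM-cKO R40D3 replicate 2 library. No test was made.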

How the results depend on the processing

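Prx-cKO and WT were compared over 2 libraries each. No gene passed with edgeR on all 4 libraries (0 called, 2096 at an unadjusted p under 0.05). DESeq2 called 301 genes, 4 of them partners or family members, and edgeR with the Xist and Ddx3y type as a block called 1 (Gm45717, named after its value was seen). Leaving out 1 library gave 0 to 605 calls, and 0 to 13 among the partners. The cause was not tested. With RLE factors, library size alone, no filter, or legacy = TRUE, edgeR called 0 genes.

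Member fold changes kept their sign under all alternatives run. With 1 library left out the log2 fold change ranged from -0.49 to -0.19 for Tbx3, -1.12 to -0.76 for Tbx5, -0.95 to -0.85 for Tbx18 and -5.41 to -4.68 for Tbx22. Tbx18 was at -1.001 with library size alone. Replicate numbers are not said to mark a shared litter or day. Deviations of same-numbered libraries correlated at 0.261, with 1 pair of groups, and principal component 1 (46.3% of the variance, against 33.3% for the component that separated the genotypes) separated replicate 1 from replicate 2 in both genotypes. The labels give no source for this, and the numbers were not taken to pair the samples. The replicate block gave 0 calls and left Tbx5 at -0.93 and Tbx22 at -4.91.

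The direction of some named genes with small differences turned, for causes not tested. Gm42717 was at 0.021 with DESeq2, 0.034 with legacy = TRUE, 0.013 with the replicate block and 0.11 with the Xist and Ddx3y block. P2ry10b was at 0.00889 with the replicate block and 0.055 with the Xist and Ddx3y block, where Wars2 was at -0.00359 and D030062O11Rik at 0.012. Gm37374 was at -0.075 with library size alone and -0.016 without a filter. With 1 library left out the ranges were -0.83 to 0.21 for Tbx6, -0.026 to 0.25 for Brip1, -1.18 to 0.51 for Gm12428, -0.22 to 0.17 for Ints2, -0.84 to 0.68 for Wars2, -0.44 to 0.76 for Gm42717, -1.19 to 0.15 for Gm43024, -0.70 to 0.74 for D030062O11Rik, -0.47 to 0.50 for Gm37374, -0.48 to 0.59 for P2ry10b and -0.0088 to 0.58 for Cldn6. Depth limits Tbx22 in Prx-cKO, where 2 and 6 reads carry its level.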
